A study of Homo sapiens with 12 samples.

Results

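The aryl hydrocarbon receptor genes examined here are CYP1B1, CYP1A1, AHR, AHRR, ARNT, ARNT2, TIPARP and ALDH3A1, taken by symbol from a table of normalised reads. Of these 8 genes 6 were among the 12616 listed genes, and CYP1A1 and ALDH3A1 were not. The genes were chosen for the rise of CYP1B1 in MeWo, and the values of CYP1B1 are therefore given as a description, without a test. The question was whether that rise came with other genes of the receptor.

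The cells were MeWo and SkMel28, both human melanoma lines. Each carried a short hairpin RNA against MITF, the transcription factor of the melanocyte lineage, which doxycycline (Dox) switches on. All cells were kept for 8 days and received either no drug (control) or 1 µg/ml Dox, with 3 libraries per line and treatment, so that 12 libraries fell into 4 groups. RNA was read at the 3′ ends of polyadenylated transcripts. Per the labels MeWo grew in EMEM and SkMel28 in RPMI, both with serum, whereas the study's methods name RPMI for its human melanoma lines in general. If the labels hold, a difference between the lines cannot be told apart from one between the media. Cells that lack the hairpin were not given Dox, so the drug and the hairpin cannot be told apart in any change described. The labels do not say whether either line is 1 clone, or whether replicates were separate cultures, and p-values then measure only the spread between these libraries, which may be technical.

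The aryl hydrocarbon receptor AHR is a ligand-activated transcription factor of the bHLH-PAS family. Without a ligand it waits in the cytoplasm, held by HSP90 and its co-chaperones. Planar aromatic compounds and tryptophan metabolites release it to the nucleus, where it pairs with ARNT, or with the related ARNT2, and binds short response elements. Its classical targets include the cytochrome P450 genes CYP1A1 and CYP1B1 and the aldehyde dehydrogenase gene ALDH3A1, whose products oxidise many of its ligands or the aldehydes made from them. Among its targets are also AHRR, a repressor that competes with the receptor for ARNT, and TIPARP, an ADP-ribosyltransferase that limits the receptor's activity. In skin the receptor is known for its part in the response to ultraviolet light and in pigmentation.

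Each library held 2568187 to 3714608 reads, and 1 read equals a value of 0.278 to 0.389 normalised reads per 1000000. A group is called at the floor where none of its libraries holds more than 3 reads, a value of at most 1.17, and this floor covers counting error only. Changes are differences in log2(value + 1), which understate the change of low genes, with a standard error (SE) or 95% interval from limma fitted to all listed genes and all 12 libraries, which measure the spread between libraries. A gene was called at a Benjamini-Hochberg adjusted p under 0.05 over all listed genes. The correlation between MeWo Dox replicates across genes was 0.960 to 0.976, under that of the other groups, the lowest of which was 0.979. Replicate 1 of MeWo Dox held the most MITF of the 3. With it left out the genes called in MeWo went from 2107 to 3913, and its values are named where they set a result.

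MITF was measured first, as a check of the labels. MITF in MeWo was 657, 663 and 708 in the controls and at 451, 354 and 371 with Dox. In SkMel28 it stood at 861, 739 and 792 in the controls and at 575, 578 and 552 with Dox. All Dox libraries lay under all controls of their line. The log2 change was −0.79 in MeWo (SE 0.11, adjusted p 6.49e-05) and −0.49 in SkMel28 (SE 0.11, adjusted p 0.00705). These 2 falls did not pass a test of their difference (adjusted p 0.225). Without MeWo Dox replicate 1 that difference was −0.41 and was called (adjusted p 0.0169). All 7 melanocytic markers were listed. Their summed values were 13021 to 13213 in MeWo controls and 6465 to 8163 in MeWo Dox. In SkMel28 the sums were 11009 to 12308 in controls and 6597 to 6809 with Dox. Of these 7, limma called 6 lower and 1 higher in MeWo, against 16.7% of all genes called in either direction. In SkMel28 it called 3 lower and 0 higher, against 10.9% of all genes. Of 7 fibroblast markers DCN and LUM were listed, with sums of 41.5 to 47.8 in MeWo controls and 9.85 to 19.2 in MeWo Dox. Their sums were 10.9 to 13.3 in SkMel28 controls and 6.04 to 8.91 in SkMel28 Dox. Of 4 keratinocyte markers KRT10 alone was listed, at 131 to 153 and 145 to 160 in MeWo controls and Dox and at 86.2 to 104 and 111 to 117 in SkMel28. None of 4 leukocyte markers was listed. Their part in the results was not tested.

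In MeWo CYP1B1, the cytochrome P450 that oxidises polycyclic hydrocarbons and oestrogens, stood at a level 26.5 times higher with Dox than without. AHRR rose 2.06-fold beside it, while AHR, ARNT, ARNT2 and TIPARP were not called. In SkMel28 CYP1B1 was at the floor with and without Dox, and there AHR, AHRR and TIPARP all rose. Of the 5 members tested, which leaves out CYP1B1, 1 was called higher in MeWo and 0 lower, against 16.7% of all genes called in either direction, 8.58% higher and 8.12% lower. In SkMel28 3 of the 5 were called higher and 0 lower, against 10.9% of all genes in either direction, 5.88% higher and 5.04% lower. At an unadjusted p under 0.05 limma gave 2 higher and 1 lower in MeWo and 4 higher and 0 lower in SkMel28, and edgeR and DESeq2 on recovered reads gave the same counts of calls as limma. The median change of the 5 was 0.16 in MeWo and 1.22 in SkMel28, beside medians over all genes of 0 and 0.0029.

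**Figure D1:**
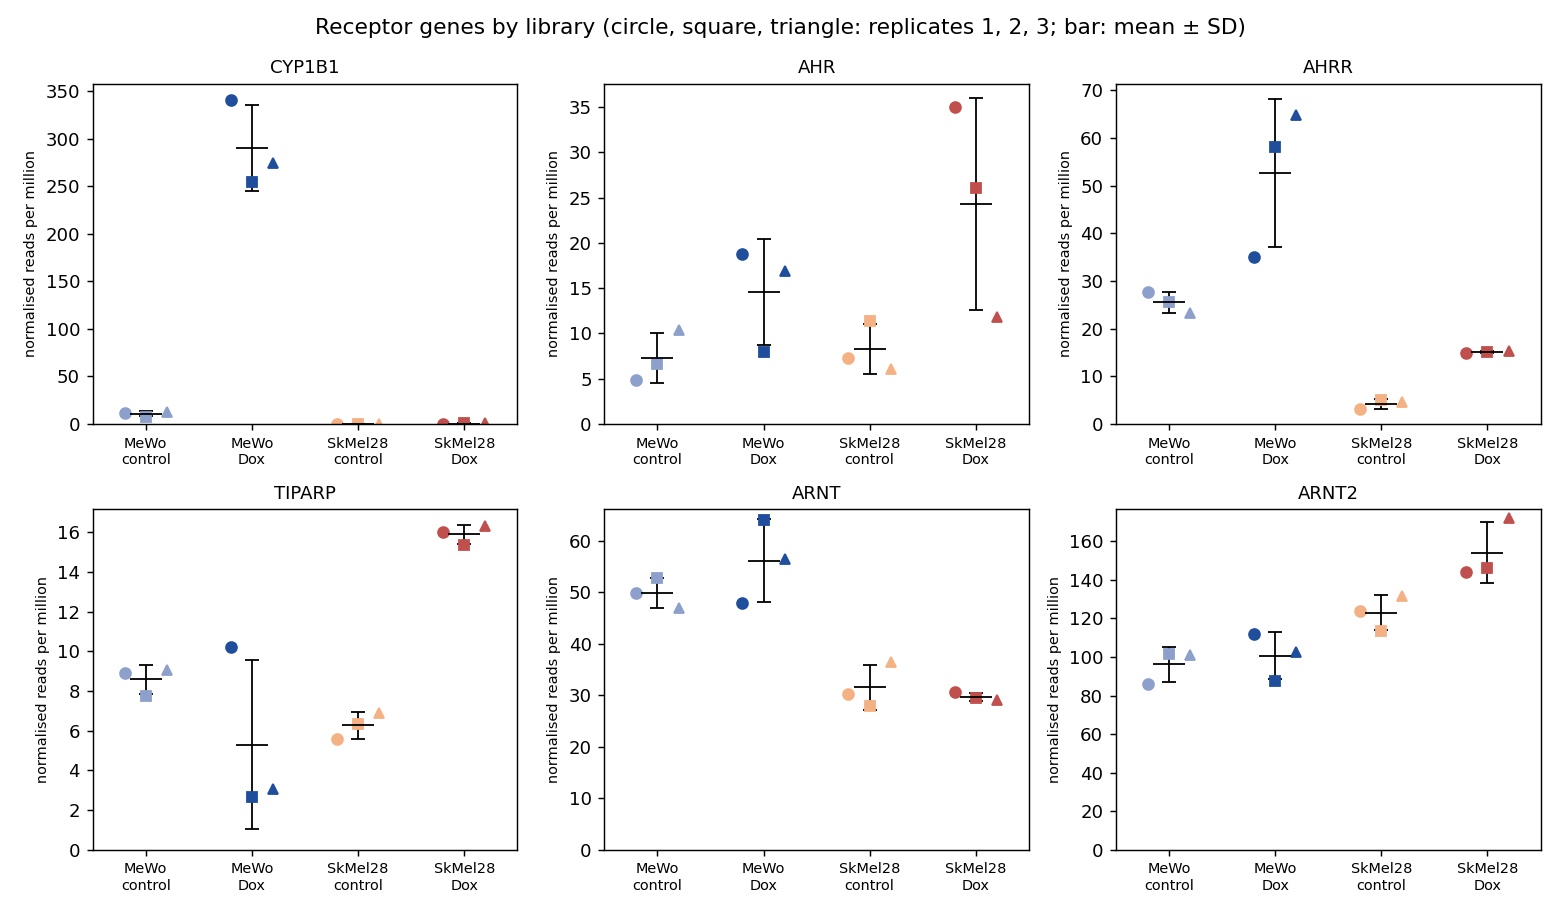
Normalised reads per 1000000 (y axis, from 0, a scale of its own for each gene) of the 6 listed receptor genes in the 3 libraries of each of the 4 groups (x axis); circles, squares and triangles are replicates 1, 2 and 3, and bars are the mean ± SD. CYP1B1 reached 254 to 341 in MeWo Dox and at most 1.00 in SkMel28, whereas TIPARP stood at 15.4 to 16.3 in SkMel28 Dox and at 2.65 to 10.2 in MeWo Dox.

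CYP1B1 lies on chromosome 2 (38066973 to 38109902, − strand, hg38). Its values in the MeWo controls were 12.1, 7.77 and 13.0, from 42, 20 and 40 reads. With Dox they were 341, 254 and 274, from 1068, 671 and 810 reads. The lowest Dox library thus held far more CYP1B1 than the highest control, and the means were 10.9 ± 2.78 and 290 ± 45.3 (SD, n = 3). On the log2(value + 1) scale the change was 4.62 (SE 0.28), which put CYP1B1 at rank 4 of the 12616 genes by its rise in MeWo. Leaving out any 1 library moved this change to between 4.42 and 4.75.

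In SkMel28 the CYP1B1 values were 0, 0.317 and 0.383 in the controls and 0, 1.00 and 0.604 with Dox. No SkMel28 library held more than 3 reads of it, so both SkMel28 groups were at the floor and no fold change is given between them. The levels therefore ran from MeWo Dox to MeWo control to SkMel28, and within SkMel28 they could not be ordered at this depth. Against the floor, CYP1B1 was at least 9.52-fold higher in MeWo controls than in SkMel28 controls and at least 289-fold higher in MeWo Dox than in SkMel28 Dox.

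The CYP1B1 locus overlaps RMDN2, which is transcribed from the opposite strand and was the only listed gene overlapping a member. Of 12 annotated RMDN2 transcripts 2 end within the CYP1B1 span, and the strand used for counting is not given in the sources used here. RMDN2 stood at 3.53 ± 0.666 in MeWo controls and 3.65 ± 1.54 in MeWo Dox (log2 change −0.00044, adjusted p 1). In SkMel28 it stood at 5.31 ± 1.45 in controls and 4.45 ± 0.645 with Dox (−0.20, adjusted p 0.742). RMDN2 held between 7 and 25 reads in every library, and its highest value in any library, 6.96, lay under every MeWo value of CYP1B1. The antisense gene CYP1B1-AS1 was not among the listed genes.

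The receptor gene AHR (chromosome 7, 16916359 to 17346152, + strand) was low in all groups. In MeWo its values were 4.90, 6.60 and 10.4 in the controls and 18.8, 7.96 and 16.9 with Dox. In SkMel28 they were 7.24, 11.4 and 6.13 in the controls and 35.0, 26.1 and 11.8 with Dox. The MeWo groups overlapped, since Dox replicate 2 lay under control replicate 3, while in SkMel28 the lowest Dox library was just above the highest control. These values rest on 16 to 118 reads per library.

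In SkMel28 AHR rose from a mean of 8.26 ± 2.79 to 24.3 ± 11.7 (SD, n = 3), a ratio of 2.94 and a log2 change of 1.36 (95% interval 0.57 to 2.15, adjusted p 0.0256). This call was lost without control replicate 1 (1.30) or 3 (1.20) or Dox replicate 1 (1.05) or 2 (1.25). In MeWo the means were 7.29 ± 2.8 and 14.6 ± 5.81, and the change of 0.88 was not called (95% interval 0.092 to 1.67, adjusted p 0.118). It was called without Dox replicate 2 (1.24, adjusted p 0.0401) and with scaling to the spike-in RNAs (1.13, adjusted p 0.0227). The difference between the lines, MeWo change minus SkMel28 change, was −0.48 and was not called (adjusted p 0.600). A different response of AHR in the lines was therefore not shown.

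The 250 bases before the RefSeq start of AHR (GRCh38.p14, chr7:17298402-17298651, + strand) are shown because MITF, the hairpin's target, is known to bind E-boxes. The capitals mark an E-box, CACGTG, which reads the same on both strands.
AHR: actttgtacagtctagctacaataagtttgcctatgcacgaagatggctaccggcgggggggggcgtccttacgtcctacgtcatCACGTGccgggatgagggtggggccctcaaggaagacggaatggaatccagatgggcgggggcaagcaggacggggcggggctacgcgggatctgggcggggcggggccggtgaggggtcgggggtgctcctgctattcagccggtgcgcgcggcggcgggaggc
This E-box begins 165 bases before the start, and the window has no receptor response core, GCGTG or its reverse complement CACGC. An E-box was found in 6.34% of all 35116 RefSeq windows of this length and in 8.43% of the 14051 windows of listed genes. A match is a description of the letters and no evidence of binding.

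AHRR, the repressor of the receptor, rose in both lines. It lies on chromosome 5 (321714 to 438291, + strand). In MeWo its values were 27.6, 25.6 and 23.3 in the controls and 35.1, 58.0 and 64.7 with Dox. In SkMel28 they were 3.06, 5.08 and 4.60 in the controls and 14.8, 15.0 and 15.4 with Dox. In neither line did the groups overlap, and MeWo Dox replicate 1 was the Dox library nearest to its controls. Of the 5 members tested AHRR was the one whose MeWo groups did not overlap, and 14.1% of all genes had all MeWo Dox libraries above all controls.

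In MeWo the AHRR mean went from 25.5 ± 2.16 to 52.6 ± 15.5, a ratio of 2.06 and a log2 change of 0.97 (SE 0.22, adjusted p 0.00635). Without MeWo Dox replicate 1 the change was 1.23 (adjusted p 0.00017), and fitted on the MeWo libraries alone it was no longer called (adjusted p 0.0740). In SkMel28 the mean went from 4.25 ± 1.05 to 15.1 ± 0.289, a ratio of 3.56 and a log2 change of 1.64 (SE 0.22, adjusted p 0.000107), and it was called under every alternative that was run. The changes in the lines differed by −0.67 (95% interval −1.34 to 0.0039, adjusted p 0.202), which was not called. Genes called higher in both lines made up 1.91% of all genes. The readthrough gene PDCD6-AHRR, annotated over the same strand, was not among the listed genes, and reads shared with it cannot be told apart.

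TIPARP, which adds ADP-ribose to the receptor, changed differently with Dox in the lines. It lies on chromosome 3 (156673235 to 156706770, + strand). In MeWo its values were 8.93, 7.77 and 9.07 in the controls and 10.2, 2.65 and 3.05 with Dox. In SkMel28 they were 5.57, 6.35 and 6.90 in the controls and 16.0, 15.4 and 16.3 with Dox. In MeWo 1 Dox library, replicate 1, lay above all controls and the others lay under them, while in SkMel28 all Dox libraries lay far above the controls. The MeWo Dox values of replicates 2 and 3 rest on 7 and 9 reads, and the SkMel28 Dox values on 46 to 54.

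In SkMel28 the TIPARP mean went from 6.27 ± 0.668 to 15.9 ± 0.484, a ratio of 2.54 and a log2 change of 1.22 (SE 0.32, adjusted p 0.0206). Leaving out any 1 of the 6 SkMel28 libraries left a change of 1.15 to 1.28 and lost the call, with adjusted p of 0.0511 to 0.0742. In MeWo the mean went from 8.59 ± 0.712 to 5.31 ± 4.26, and the change of −0.80 was not called (95% interval −1.48 to −0.12, adjusted p 0.0999). Without MeWo Dox replicate 1 it was −1.32 (adjusted p 0.000345). The MeWo change minus the SkMel28 change was −2.02 (SE 0.46, adjusted p 0.0136), which made TIPARP 1 of the 5 members called in this interaction, against 7.09% of all genes. That call held when each of the 12 libraries was left out in turn, with values between −2.54 and −1.73.

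**Figure D2:**
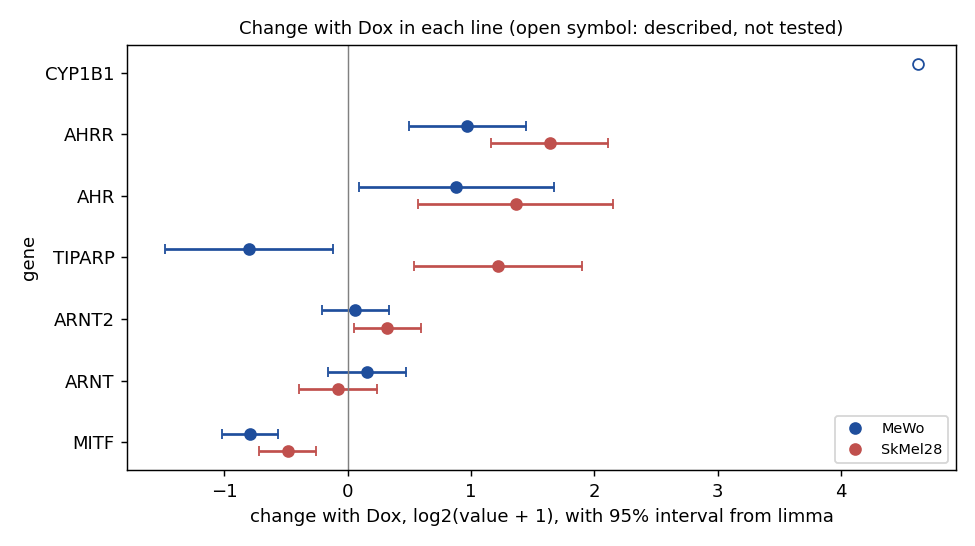
Change with Dox (x axis, log2(value + 1) units) of the receptor genes and MITF (y axis) in MeWo (blue) and SkMel28 (red); points are differences of group means over 3 libraries and bars are 95% intervals from limma. The interval of AHRR lies above 0 in both lines, TIPARP is at −0.80 in MeWo and at 1.22 in SkMel28, and CYP1B1 is drawn for MeWo alone, as an open symbol without an interval.

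The windows before the starts of AHRR (GRCh38.p14, chr5:321464-321713, + strand) and TIPARP (GRCh38.p14, chr3:156674340-156674589, + strand) are shown because these receptor targets both rose in SkMel28. The capitals mark GCGTG, the core letters of the receptor's response element, on either strand (CACGC where it lies on the other strand).
AHRR: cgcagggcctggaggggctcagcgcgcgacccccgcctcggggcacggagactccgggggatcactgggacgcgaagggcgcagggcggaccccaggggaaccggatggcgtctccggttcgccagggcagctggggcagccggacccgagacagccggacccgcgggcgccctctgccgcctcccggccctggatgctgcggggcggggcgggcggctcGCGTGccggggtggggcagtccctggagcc
TIPARP: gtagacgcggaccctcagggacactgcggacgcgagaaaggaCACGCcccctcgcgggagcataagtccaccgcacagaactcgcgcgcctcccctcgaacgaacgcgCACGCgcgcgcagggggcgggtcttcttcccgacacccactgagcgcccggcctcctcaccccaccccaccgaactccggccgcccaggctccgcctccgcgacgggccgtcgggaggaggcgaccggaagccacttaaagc
In the AHRR window the core begins 30 bases before the start, and in the TIPARP window the 2 cores begin 208 and 142 bases before it. A second AHRR window (chr5:322360-322609) held 2 cores, at 247 and 42 bases before its start, whereas the ARNT window and 2 further TIPARP windows held none. The CYP1A1 window held 1, at 57 bases. The core was found in 32.2% of all windows of this length and in 43.8% of those of listed genes, so its presence does not set these genes apart. No member's window held the 8-base sequence TCACGTGA preferred by MITF, which was found in 0.854% of all windows. Of the 8 members 5 had an entry in the RefSeq table, and CYP1B1, ARNT2 and ALDH3A1 had none.

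The dimerisation partners moved little. ARNT, the partner that carries the receptor to DNA, lies on chromosome 1 (150809713 to 150876708, − strand). Its values in MeWo were 49.8, 52.8 and 47.0 in the controls and 47.9, 64.1 and 56.6 with Dox. In SkMel28 they were 30.3, 27.9 and 36.4 in the controls and 30.6, 29.4 and 29.0 with Dox. The groups overlapped in both lines. The change was 0.16 in MeWo (95% interval −0.16 to 0.48, adjusted p 0.507) and −0.078 in SkMel28 (−0.39 to 0.24, adjusted p 0.818), with a difference between the lines of 0.24 (adjusted p 0.505).

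ARNT2, the close relative of ARNT known mainly from neural tissue, lies on chromosome 15 (80404350 to 80597933, + strand). Its values in MeWo were 85.8, 102 and 101 in the controls and 112, 87.6 and 103 with Dox. In SkMel28 they were 124, 114 and 131 in the controls and 144, 146 and 172 with Dox. In SkMel28 all Dox libraries lay above all controls, yet the change of 0.32 was not called (95% interval 0.051 to 0.59, adjusted p 0.130). In MeWo the groups overlapped, and the change was 0.063 (−0.21 to 0.33, adjusted p 0.792). With AHR, AHRR and TIPARP, ARNT2 made 4 of 5 members whose SkMel28 Dox libraries all lay above the controls, where 16.1% of all genes did so.

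Before Dox some of the receptor genes differed between the lines, as did 51.4% of all genes. AHRR was lower in SkMel28 controls than in MeWo controls, by −2.36 on the log2 scale (adjusted p 1.38e-07), and its MeWo control values of 23.3 to 27.6 lay above even the SkMel28 Dox values. ARNT was also lower in SkMel28, by −0.65 (SE 0.15, adjusted p 0.00152), and with scaling to the spike-in RNAs this was −0.51 and not called (adjusted p 0.0542). ARNT2 was higher in SkMel28 by 0.35 (adjusted p 0.0295), and that call was lost without MeWo control replicate 1 (0.27) or SkMel28 control replicate 1 (0.35) or 3 (0.30). AHR (0.17, adjusted p 0.719) and TIPARP (−0.40, adjusted p 0.313) were not called between the lines. These calls, 3 of 5 members, stand against 51.4% of all genes called between the lines.

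The next comparison asked whether other genes known as receptor targets moved with CYP1B1. A hand-written list of 28 such genes had 16 listed. It was chosen with earlier results of these data known, so its shares are a description only. In MeWo 2 of the 16 were called higher, TGFA and NEDD9, and 2 were called lower, VAV3 and SLC7A5, with a median change of 0.043. In SkMel28 5 were called higher, TGFA, PTGS2, NFE2L2, NQO1 and CDKN1B, and again VAV3 and SLC7A5 lower, with a median of 0.47. As shares in either direction these are 25% called in MeWo against 16.7% of all genes, and 43.8% in SkMel28 against 10.9%. By direction, the 2 higher and 2 lower of 16 in MeWo stand against 8.58% and 8.12% of all genes. The 5 higher and 2 lower in SkMel28 stand against 5.88% and 5.04%. NQO1 and CDKN1B were named after their values were seen, to complete the count of 5. With scaling to the spike-in RNAs NFE2L2, NQO1 and CDKN1B lost their SkMel28 calls, which left 2 called higher, and VAV3 and SLC7A5 lost their MeWo calls.

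NQO1, the quinone reductase that both the receptor and NFE2L2 are known to induce, gave the deepest counts on this list among those that rose. In SkMel28 its values were 727, 694 and 686 in the controls and 1095, 1074 and 1107 with Dox. In MeWo they were 150, 159 and 152 in the controls and 189, 181 and 151 with Dox. All SkMel28 Dox libraries were above the controls, while the MeWo groups overlapped through Dox replicate 3. The change was 0.64 in SkMel28 (SE 0.10, adjusted p 0.000511) and 0.17 in MeWo (adjusted p 0.275), with a difference of −0.46 that limma did not call (adjusted p 0.0615) and edgeR did not either (adjusted p 0.083). DESeq2 (−0.44, adjusted p 0.0439), upper-quartile scaling (−0.49, adjusted p 0.0494) and the fit without MeWo Dox replicate 1 (−0.53, adjusted p 0.00436) called it. NFE2L2, the antioxidant transcription factor also known as NRF2, went from 45.8 ± 15.0 to 75.9 ± 11.0 in SkMel28 (0.76, adjusted p 0.0227) and from 32.7 ± 3.65 to 34.0 ± 3.83 in MeWo (0.054, adjusted p 0.899). Its SkMel28 call was lost without control replicate 3 (0.49), Dox replicate 1 (0.67) or Dox replicate 2 (0.74).

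PTGS2, the inducible prostaglandin synthase, differed between the lines. In SkMel28 it rose from 2.22 ± 0.853 to 7.32 ± 0.757 (log2 change 1.40, adjusted p 0.0109), and in MeWo it stood at 6.50 ± 1.67 and 5.10 ± 3.36 (−0.41, adjusted p 0.443). As for TIPARP, MeWo Dox replicate 1 was the highest of its group, at 8.94 against 2.65 and 3.73. The interaction was −1.81 (adjusted p 0.0295), a call that was lost in 9 of the 12 fits with 1 library left out, with values of −1.86 to −1.50. The SkMel28 call was lost without control replicate 3 (1.24), and without MeWo Dox replicate 1 the MeWo change was −0.83 and was called. TGFA, a ligand of the EGF receptor, was called higher in both lines. In SkMel28 it went from 1.25 ± 1.14 to 6.52 ± 0.170 (1.85, adjusted p 0.00184), and in MeWo from the floor to 1.97 ± 0.850, at least 1.69-fold higher (adjusted p 0.0343). The MeWo value rests on 3 to 7 reads per Dox library, and its change was not called by DESeq2 (adjusted p 0.0601) or with a pseudocount of 5 (adjusted p 0.064) and lost the call without control replicate 1 (1.11) or 3 (0.93) or Dox replicate 2 (0.95).

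CDKN1B, a cyclin-dependent kinase inhibitor, rose in SkMel28 from 38.3 ± 2.99 to 60.4 ± 6.54 (0.64, adjusted p 0.0046), and in MeWo it went from 34.2 ± 1.87 to 43.6 ± 0.447 (0.34, adjusted p 0.0954). NEDD9, a scaffold of focal adhesions, rose in MeWo from 46.4 ± 4.31 to 78.2 ± 1.90 (0.74, adjusted p 0.0121), and in SkMel28 it went from 10.1 ± 3.03 to 13.0 ± 0.330 (0.37, adjusted p 0.248). Its MeWo call was lost without control replicate 3 (0.69). Among the genes called lower were VAV3, a guanine nucleotide exchange factor, and SLC7A5, a transporter of tryptophan and other large amino acids. VAV3 fell in MeWo from 21.7 ± 2.95 to 13.4 ± 0.789 (−0.65, adjusted p 0.00627) and in SkMel28 from 100.5 ± 3.45 to 39.8 ± 3.91 (−1.32, adjusted p 1.58e-05). SLC7A5 fell in MeWo from 524 ± 24.9 to 322 ± 25.0 (−0.70, adjusted p 0.000357) and in SkMel28 from 179 ± 4.25 to 128 ± 18.6 (−0.49, adjusted p 0.00924), a call lost without Dox replicate 1 (−0.44) or 2 (−0.43). Of the 16 targets, PTGS2 was the 1 called in the interaction by limma, against 7.09% of all genes, and by edgeR. DESeq2 called NQO1 and gave PTGS2 no adjusted p, and spike-in scaling and a pseudocount of 5 also called VAV3.

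**Figure D3:**
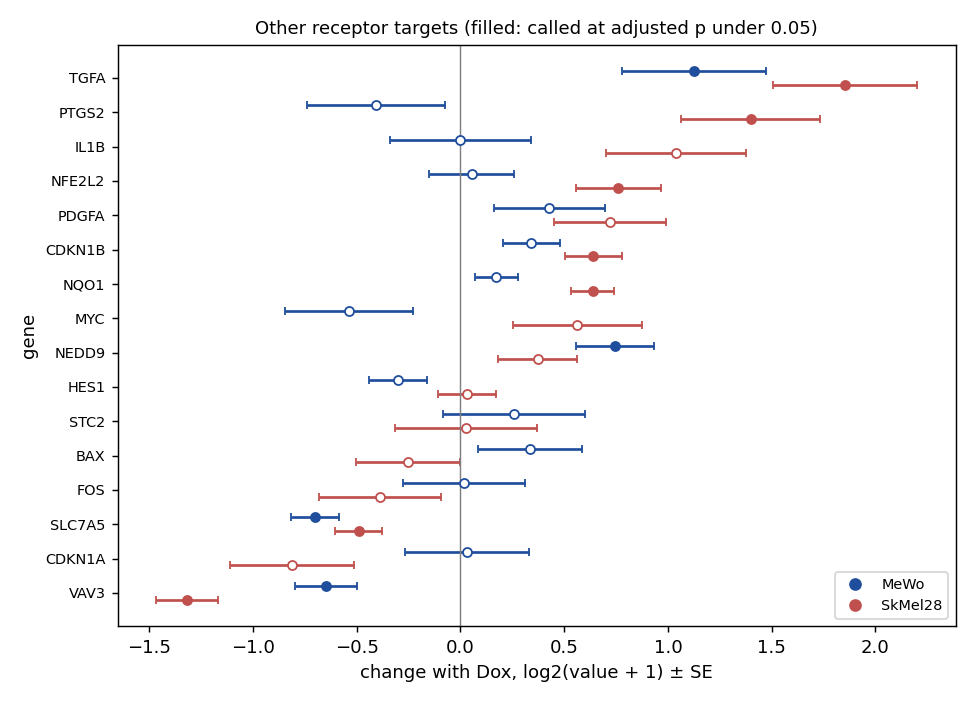
Change with Dox (x axis, log2(value + 1) units, ± SE from limma) of the 16 listed receptor targets other than the members (y axis) in MeWo (blue) and SkMel28 (red), 3 libraries against 3; filled points were called at an adjusted p under 0.05. TGFA, PTGS2, NFE2L2, NQO1 and CDKN1B are filled on the right in SkMel28, and VAV3 and SLC7A5 are filled on the left in both lines.

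Of 4 genes of the cytoplasmic complex that holds the receptor, limma called HSP90AA1 and PTGES3 lower in MeWo, where 8.12% of all genes were. Neither was called in SkMel28 by limma. There HSP90AA1 was called lower by DESeq2, with the SkMel28 libraries fitted alone and without MeWo Dox replicate 1 (−0.28 in each). HSP90AA1, the inducible HSP90, went from 2489 ± 73.3 to 1983 ± 94.1 in MeWo (−0.33, adjusted p 0.0248) and from 1903 ± 35.8 to 1572 ± 38.8 in SkMel28 (−0.28, adjusted p 0.0754). With scaling to the spike-in RNAs its MeWo change was −0.055, and the call was also lost without any 1 MeWo control (−0.35 to −0.30) or Dox replicate 3 (−0.29). PTGES3, the co-chaperone p23, went from 315 ± 11.0 to 222 ± 39.0 in MeWo (−0.52, adjusted p 0.00892) and was at 237 ± 25.0 and 226 ± 11.3 in SkMel28 (−0.066, adjusted p 0.817). With scaling to the spike-in RNAs the MeWo change of PTGES3 was −0.24 and lost its call (adjusted p 0.398), and with the MeWo libraries fitted alone it was not called either (adjusted p 0.0844). HSP90AB1, the constitutive HSP90, changed by −0.14 in MeWo (adjusted p 0.376) and by 0.046 in SkMel28 (adjusted p 0.838).

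Enzymes that make receptor ligands from tryptophan, together with their relatives, had 6 of 14 genes listed. Of the 6, 0 were called in either line by limma, edgeR or DESeq2, with 0 at an unadjusted p under 0.05 by limma. Over all genes 16.7% were called in MeWo and 10.9% in SkMel28, so 0 of 6 does not set these enzymes apart. The bHLH-PAS relatives, which include the hypoxia factors and the clock genes, had 13 of 20 genes listed. Of these, limma called 15.4% in MeWo, against 16.7% of all genes. In MeWo 1 of them rose, NPAS3, a neuronal factor, from 8.43 ± 3.65 to 18.6 ± 4.95 (1.09, adjusted p 0.0173), a call lost with a pseudocount of 0.1 (adjusted p 0.165) and without control replicate 1 (0.92) or 2 (0.97) or Dox replicate 3 (0.90). PER3, a clock gene, fell in MeWo from 21.6 ± 2.11 to 5.88 ± 1.33 (−1.73, adjusted p 1.52e-05), and in SkMel28 it changed by −0.57 (adjusted p 0.0959), with an interaction of −1.16 (adjusted p 0.0248). That interaction lost its call in 5 of the 12 fits with 1 library left out, with values of −1.16 to −1.10, and with scaling to the spike-in RNAs (−0.82, adjusted p 0.148). Of the 13, 0 were called in SkMel28 by limma, edgeR or DESeq2, against 10.9% of all genes by limma, and 2 had an unadjusted p under 0.05, both lower. HIF1A, which shares ARNT with the receptor, changed by −0.52 in MeWo (adjusted p 0.0658) and by −0.25 in SkMel28 (adjusted p 0.469).

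ARNT also serves the hypoxia factors, and a list of 15 hypoxia targets had 11 listed. In MeWo limma called PFKFB4 and NDRG1 higher and ADM and BNIP3 lower, 36.4% of the 11 against 16.7% of all genes. In SkMel28 it called VEGFA higher and SLC2A1 and PFKFB4 lower, 27.3% against 10.9%. The number called lower in SkMel28 was 4 by edgeR and by DESeq2, with ADM among them (adjusted p 0.0328 and 0.0486, log2 change −0.80 and −0.81). In none of the 12 fits with 1 library left out did that number stay at 2, and it ran from 0 to 4. PFKFB4, a regulator of glycolysis, went from 48.8 ± 6.30 to 99.2 ± 5.38 in MeWo (1.01, adjusted p 0.00161) and from 29.8 to 18.3 on average in SkMel28 (−0.69, adjusted p 0.032), with an interaction of 1.70 (adjusted p 0.00152). The SkMel28 call of PFKFB4 was lost without control replicate 1 (−0.67) or 3 (−0.53) or Dox replicate 1 (−0.70) or 3 (−0.49). VEGFA, the angiogenic growth factor, went from 12.1 ± 4.02 to 19.9 ± 0.445 in SkMel28 (0.72, adjusted p 0.0339) and changed by 0.30 in MeWo (adjusted p 0.353). Its SkMel28 call was lost with scaling to the spike-in RNAs (0.63, adjusted p 0.129) and without any 1 SkMel28 library other than control replicate 2 (0.52 to 0.73). BNIP3 in MeWo lost its call in 11 of the 12 fits with 1 library left out (−0.83 to −0.44), and edgeR (adjusted p 0.0819) and DESeq2 (adjusted p 0.0892) did not call it. SLC2A1 in SkMel28 lost its call in 10 of the 12 (−0.79 to −0.59), NDRG1 in MeWo in 5 (0.48 to 0.70) and ADM in MeWo in 2 (−0.88 to −0.86). The list's medians were −0.025 in MeWo and −0.17 in SkMel28.

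The families of the members were then compared with the members themselves. Of 10 listed P450 genes other than CYP1B1, limma called 0 higher in MeWo, also at an unadjusted p under 0.05 and with edgeR and DESeq2. It called 1 lower, CYP27A1, a mitochondrial sterol hydroxylase, which went from 67.3 ± 9.31 to 37.6 ± 9.50 (−0.84, adjusted p 0.0019). Over all genes 8.58% were called higher and 8.12% lower in MeWo, so these counts do not set the 10 genes apart. In SkMel28, where 5.88% of all genes were called higher, 1 of the 10 was. CYP27C1, a retinoid desaturase, went from 2.08 ± 0.605 to 6.35 ± 2.24 (1.23, adjusted p 0.0089). That call was lost with DESeq2 (adjusted p 0.0612), with a pseudocount of 0.1 (adjusted p 0.16), and without control replicate 1 (1.06) or Dox replicate 3 (1.01). Of 6 genes that supply electrons to P450 enzymes or serve them otherwise, CYB5A was called lower in MeWo, at 43.8, 42.7 and 37.9 in the controls and 40.9, 16.7 and 16.3 with Dox (−0.86, adjusted p 0.0344), a call that edgeR and DESeq2 did not make. The call was also lost without any 1 MeWo library other than Dox replicate 1 (−0.92 to −0.64), and Dox replicate 1 lay within the controls.

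Of 14 listed aldehyde dehydrogenase genes, the family of ALDH3A1, limma called 1 higher and 3 lower in each line, 28.6% against 16.7% of all genes in MeWo and 10.9% in SkMel28. edgeR and DESeq2 each called 2 higher and 3 lower in MeWo and 2 higher and 2 lower in SkMel28. With scaling to the spike-in RNAs 0 were called lower in MeWo. With 1 library left out the SkMel28 counts ran from 0 to 3 higher and from 0 to 4 lower. By limma ALDH9A1 and ALDH1B1 were called lower in both lines, ALDH16A1 in MeWo and ALDH1L2 in SkMel28. With 1 library left out, ALDH9A1 ran from −0.59 to −0.45 in MeWo and −0.57 to −0.40 in SkMel28. ALDH1B1 ran from −0.94 to −0.76 in MeWo and −1.04 to −0.70 in SkMel28. ALDH16A1 ran from −0.79 to −0.56 in MeWo and ALDH1L2 from −1.24 to −0.77 in SkMel28. The call was lost in 4 fits for ALDH16A1 and 6 for ALDH1L2. In SkMel28 it was lost in 4 for ALDH9A1 and 2 for ALDH1B1. ALDH1A3, which makes retinoic acid, rose in MeWo from 2.36 ± 1.71 to 10.1 ± 1.07 (1.90, adjusted p 0.000229) and went from 223 ± 9.76 to 383 ± 10.0 in SkMel28 (0.78, adjusted p 0.108). That SkMel28 change, not called by limma, was called by edgeR (adjusted p 0.00175), DESeq2 (adjusted p 1.52e-08), with a pseudocount of 5 (adjusted p 0.0025) and with the SkMel28 libraries fitted alone (adjusted p 0.000818), while the MeWo rise was not called with the MeWo libraries fitted alone (adjusted p 0.0753). ALDH1A1, its relative, rose in SkMel28 from 37.6 ± 4.09 to 80.5 ± 10.2 (1.08, adjusted p 0.0137), a call lost with a pseudocount of 0.1 (adjusted p 0.0707) and without control replicate 3 (0.99) or Dox replicate 1 (1.05) or 2 (1.00). Of 12 genes of the PARP family, to which TIPARP belongs, 0 were called in SkMel28 by limma, edgeR or DESeq2, against 10.9% of all genes. At an unadjusted p under 0.05 limma gave 2, both higher. In MeWo limma called 1 of the 12, 8.33% against 16.7% of all genes. This was PARP1, the main DNA-damage-sensing member, called lower (−0.59, adjusted p 0.00643). Its interaction of −0.73 (adjusted p 0.0317) lost its call in 9 of the 12 fits with 1 library left out (−0.79 to −0.58). With scaling to the spike-in RNAs both calls of PARP1 were lost, at −0.32 in MeWo (adjusted p 0.256) and −0.36 in the interaction (adjusted p 0.41).

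The genes whose levels followed CYP1B1 most closely over the 12 libraries were TLE4 (Pearson r 0.992), PMEPA1 (0.990), CILP2 (0.986), SCCPDH (0.981) and LYPD1 (0.981), out of 9025 genes whose highest group mean reached 10. The 12 libraries share lines and treatments, so the coefficients describe a high level in MeWo Dox and the difference between the lines, and no more. In all 5 genes the SkMel28 controls lay under the MeWo controls. With Dox in SkMel28, limma also called SCCPDH (0.41, adjusted p 0.0477) and LYPD1 (1.00, adjusted p 0.0126) higher. TLE4, a transcriptional co-repressor, stood at 4.32 ± 1.38 in MeWo controls and 30.5 ± 2.37 in MeWo Dox. PMEPA1, a target of TGF-beta signalling, stood at 25.3 ± 4.50 and 187 ± 26.1, and at 3.97 ± 1.71 and 4.57 ± 1.15 in SkMel28. All 5 had their highest mean in MeWo Dox. The genes most like AHRR were ADCY1 (0.990), JUN (0.987), PGM2L1 (0.983), SEPW1 (0.980) and FAXDC2 (0.976), and JUN, part of the AP-1 factor, stood at 202 ± 6.92 and 306 ± 56.6 in MeWo and at 31.1 ± 8.07 and 114 ± 1.64 in SkMel28.

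**Figure D4:**
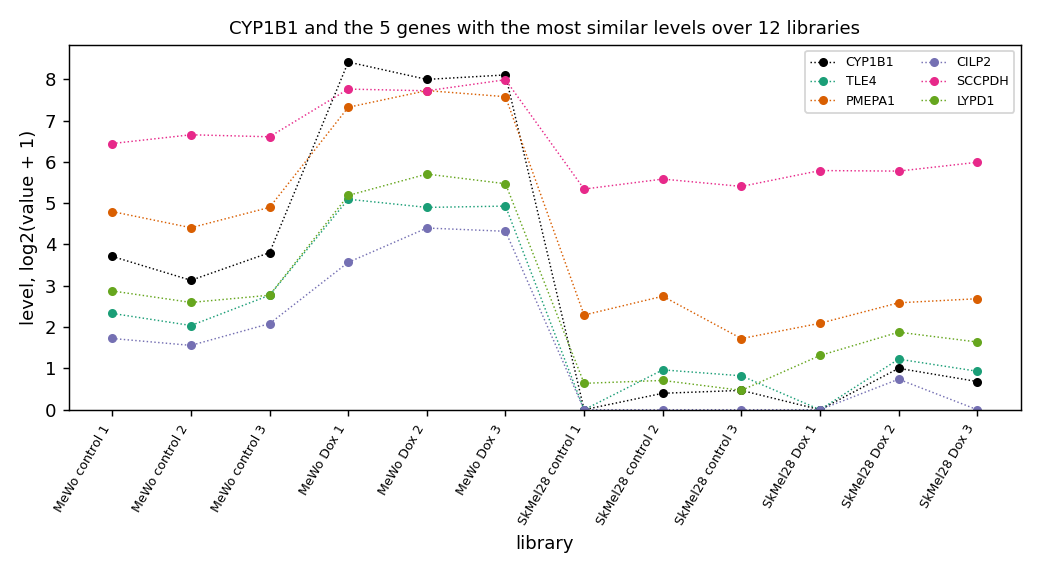
Level (y axis, log2(value + 1)) of CYP1B1 and the 5 genes most like it by Pearson r in each of the 12 libraries (x axis, grouped by line and treatment); dotted lines only join the points of a gene, as replicates have no order. The genes are highest in the 3 MeWo Dox libraries, and each is lower in every SkMel28 library than in any MeWo library.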

How the data were processed

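MeWo and SkMel28 cells, 3 control and 3 Dox libraries each, were sequenced at 3′ ends (QuantSeq Forward). The submitters' processing notes name FastQC 0.11.7, cutadapt 2.8, STAR 2.5.1b, edgeR and hg38; the counting tool, annotation and strand are not given in the sources used here. The deposited table holds a normalised signal: the authors divided each gene's reads by an effective library size, per 1000000, and listed features at 1 or more in at least 3 libraries. In every library 100% of values were whole multiples of 1 read (tolerance 0.01 reads), so reads were recovered, 2568187 to 3714608 per library. Of 12683 features 67 spike-ins were set aside, and they took 5.69 to 8.55% of reads.

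Values were fitted as log2(value + 1) with limma 3.58.1 (R 4.3.3, mean-variance trend) over 12 libraries and 4 group means. Compared were Dox with control within each line, the difference of those changes, called the interaction (MeWo minus SkMel28), and the controls of SkMel28 with those of MeWo. Tests were two-sided and adjusted by Benjamini-Hochberg over 12616 genes. On the recovered reads, edgeR 4.0.16 quasi-likelihood tests called 2045 genes in MeWo and 1422 in SkMel28, and DESeq2 1.42.0 called 1910 and 1303. The other alternatives were pseudocounts of 0.1 and 5, a filter of at least 5 in at least 3 libraries, upper-quartile and spike-in scaling, no trend, a replicate block, the 2 compared groups alone and leaving out each library. The procedure was tested on simulated data, with the same spread setting for all genes and groups. The lower correlation between MeWo Dox replicates was not simulated. Loci are from GENCODE release 44 and the windows before gene starts from RefSeq GRCh38.p14.

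The members and gene lists were chosen with earlier results of these data known. Named were MITF, the members, called genes of each list (at most the 3 largest rises and falls per line), listed chaperones (except 1, not reported here) and targets where a count is described, and the 5 genes most like CYP1B1 and AHRR. HIF1A was added as a partner of ARNT, chosen after its values were seen.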

Additional observations from a re-analysis of the deposited data

Results flagged for a closer look

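Among the members and the named genes of the lists other than markers, 5 changed differently with Dox between the lines. This was by a test of the difference itself, in limma with Benjamini-Hochberg adjustment over all genes. Markers and genes picked for likeness to CYP1B1 or AHRR were left out of this count. Over all genes 7.09% were called in this test, and most list genes were named because they had been called with Dox. Interaction calls of genes not named are not among the 5. Of the ALDH family 1 was called higher and 2 lower. Of the 6 genes that serve P450 enzymes 1 was lower, and of the PARP family 2, PARP1 among them. TIPARP gave −2.02 (MeWo change minus SkMel28 change, log2 scale, adjusted p 0.0136), from −0.80 in MeWo and 1.22 in SkMel28, and PTGS2 gave −1.81 (adjusted p 0.0295), from −0.41 and 1.40. PER3 gave −1.16 (adjusted p 0.0248), from falls in the mean in both lines of unequal size (−1.73 and −0.57). PFKFB4 gave 1.7 (adjusted p 0.00152), from 1.01 in MeWo and −0.69 in SkMel28, and PARP1 gave −0.725 (adjusted p 0.0317), from −0.59 and 0.14. With scaling to the spike-in RNAs PER3 (−0.82, adjusted p 0.148) and PARP1 (−0.36, adjusted p 0.41) were no longer called, and with 1 library left out PTGS2 and PARP1 each lost their call in 9 of 12 fits and PER3 in 5. In MeWo Dox, replicate 1 was the highest of its group for TIPARP and PTGS2. The part of that library in these differences is given by leaving it out, which moved TIPARP to −2.54.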

How the results depend on the processing

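No called result changed direction under any alternative that was run. For CYP1B1 in MeWo a pseudocount of 5 gave 4.21, and leaving out 1 library 4.42 to 4.75. Spike-in scaling moved the median of all genes by 0.22 in MeWo, −0.079 in SkMel28, 0.30 in the interaction and 0.13 between lines. With it MeWo AHR was called (1.13), so 2 members were called, 0 targets were lower in MeWo, 2 were higher in SkMel28 and 1 was higher in the interaction; 1516 genes were called in the interaction, and ARNT between lines was −0.51, not called. With the 2 compared groups alone 813 genes were called in MeWo, AHRR (0.97) lost its call and left 0 members, 1 target was higher and 1 lower, and SkMel28 AHR (1.36) lost its call. Without the trend SkMel28 AHR (1.36) and ARNT2 between lines (0.35) lost theirs, 1 target was lower in SkMel28 and 554 genes were called in the interaction. A pseudocount of 5 left 1 target higher in MeWo and gave 1 higher in the interaction, DESeq2 left 1 higher in MeWo, and upper-quartile scaling gave 2 lower in the interaction.

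Among the named genes, spike-in scaling lost the MeWo calls of ADM, ALDH16A1, ALDH1B1, ALDH9A1, BNIP3, CYB5A, HSP90AA1, PTGES3, PARP1, SLC7A5 and VAV3. It also lost the SkMel28 calls of ALDH9A1, CDKN1B, NFE2L2, NQO1 and VEGFA and the interactions of PARP1 and PER3. The 2 compared groups alone lost the MeWo calls of ADM, ALDH16A1, ALDH1A3, BNIP3, CYB5A, CYP27A1, HSP90AA1, NDRG1, NPAS3, PARP1, PTGES3, TGFA and VAV3. They also lost the SkMel28 calls of ALDH1L2, NFE2L2, PFKFB4 and VEGFA. Without the trend MITF in SkMel28 was at an adjusted p of 0.05002. That setting also lost the MeWo calls of BNIP3, CYB5A, HSP90AA1 and NDRG1. In SkMel28 it lost those of ALDH9A1, NFE2L2, PFKFB4, SLC2A1 and SLC7A5, and the interaction of PARP1 (adjusted p 0.0906) was lost too.

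Leaving out 1 library gave 1281 to 3913 genes called in MeWo, 784 to 2042 in SkMel28 and 449 to 3115 in the interaction. Members called ranged from 1 to 2 in MeWo and 1 to 3 in SkMel28. Targets ranged from 0 to 3 higher and 2 to 5 lower in MeWo, 1 to 3 lower in SkMel28, and 0 to 2 higher and 0 to 4 lower in the interaction. AHR ranged from 0.66 to 1.24 in MeWo and 1.05 to 1.79 in SkMel28, TIPARP from −1.32 to −0.51 in MeWo and 1.15 to 1.28 in SkMel28, and ARNT2 between lines from 0.27 to 0.41. The highest counts over all genes came without MeWo Dox replicate 1. The causes were not tested, beyond the smaller number of samples.

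A replicate block gave 1980 genes called in MeWo, 1191 in SkMel28 and 820 in the interaction, changed no member's call, and lost the calls of BNIP3 in MeWo and SLC2A1 in SkMel28 and of no other named gene. Same-numbered control and Dox libraries correlated in their deviations at −0.18 to 0.16 over 6 pairs, and 1 of 6 controls correlated best with its own number, so the numbers were not taken to pair samples. Depth limits CYP1B1 in SkMel28, at 3 reads or fewer, and AHR, TIPARP and TGFA in part.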
